A study of Mus musculus with 4 samples.

Results

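CA3-marker spots are Visium capture spots selected on their own UMIs as candidates for the CA3 pyramidal cell layer of the hippocampus. In each section the spots with at least 500 UMIs (unique molecular identifiers, each standing for 1 captured mRNA molecule) were taken. The highest 2% by the share of C1ql2, a secreted synaptic protein of dentate granule cells, formed a C1ql2 core. A spot became a member when it lay within 14 spot spacings of a core spot without being one, held 2 or more UMIs summed over Hs3st4, Homer3 and Grik4, held at least 1 UMI of Hpca, and held none of Rprm, Tbr1, Prkcd, C1ql2 or Fibcd1. This gave 60 members among 9676 spots with 500 or more UMIs and 10940 spots over tissue. Trained 1 held 16 members, trained 2 held 22, untrained 1 held 11 and untrained 2 held 11.

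The sections came from 4 adult male mice, 3 to 4 months old, on a C57BL/6 background and of genotype ArcCreERT2::eYFPflx. Cells with an active Arc promoter at the time of tamoxifen acquire a lasting eYFP label in this line, through an inducible Cre. The 2 trained mice learned to avoid a shock zone on a rotating arena (active place avoidance), and the 2 untrained mice met the same arena with the shock off. All 4, controls included, received 4-hydroxytamoxifen under brief isoflurane anesthesia before a retention test and were killed 3 days later, after single housing. Each mouse gave 1 coronal section of dorsal hippocampus, so the section is the replicate and each group has 2, and the comparison addressed what differs in gene expression while a memory is held without recall.

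CA3 pyramidal cells receive mossy fiber input from dentate granule cells, excite one another through recurrent collaterals and send Schaffer collaterals to CA1. Kainate receptors act at their mossy fiber synapses, and the layer has long been studied for the storage and completion of memory patterns. Among the genes of the rule, Hs3st4 makes an enzyme of heparan sulfate synthesis, Homer3 a postsynaptic scaffold protein, Grik4 a kainate receptor subunit and Hpca the calcium sensor hippocalcin. Rprm and Tbr1 are genes of deep cortical layers, Prkcd is a kinase of thalamic relay neurons, and Fibcd1 marks CA1. A spot is a small area that can hold several cells, so a value per spot mixes the RNA of neighboring cells, and fewer cells of a type cannot be told apart from less RNA per cell.

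**Figure D1:**
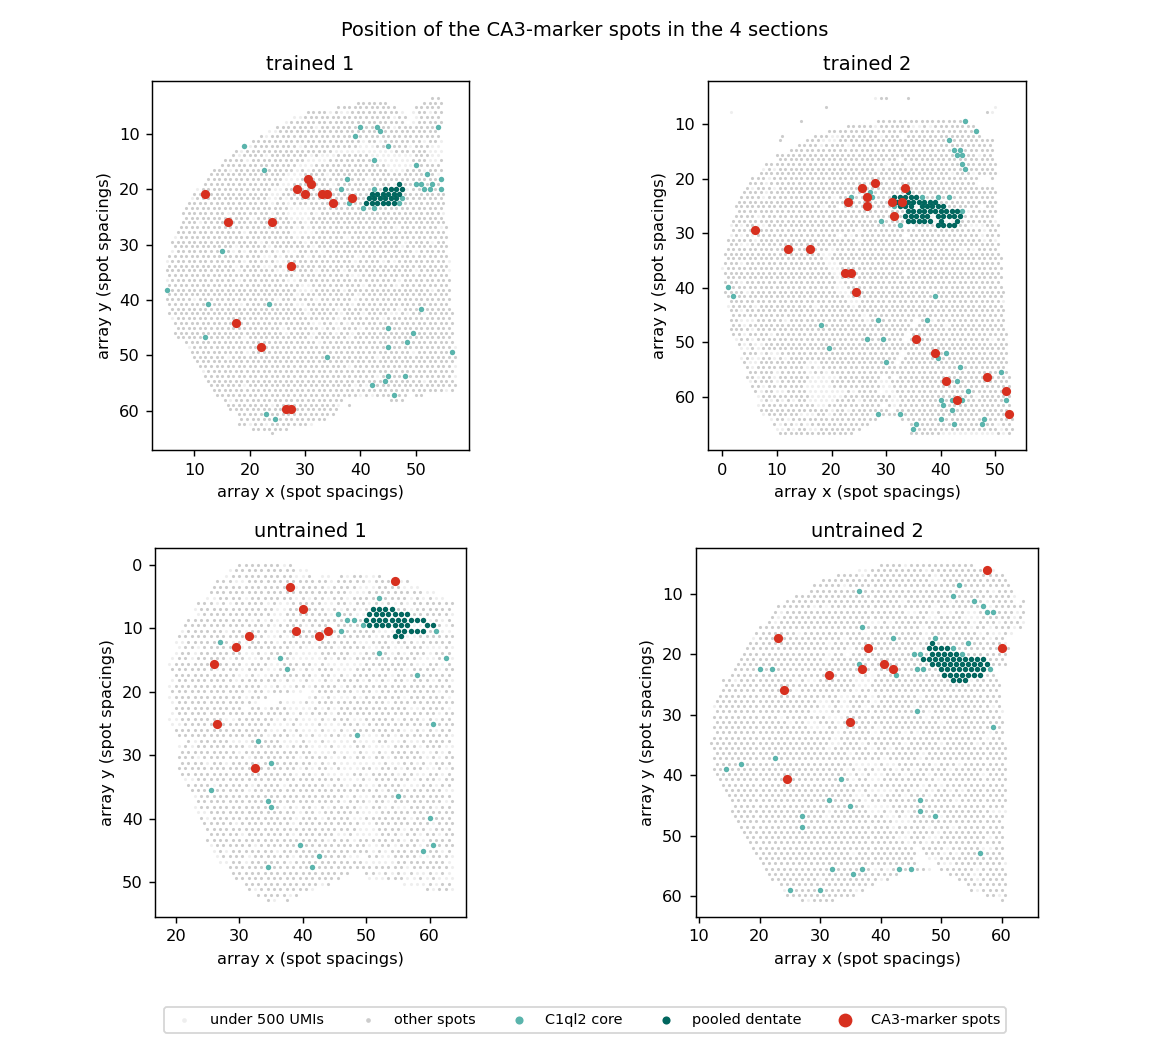
Position of the spots in each section, with both axes in spot spacings. CA3-marker spots are red, C1ql2 core spots light green, the pooled dentate dark green and other spots gray. In each of the 4 sections 5 to 9 members lie within 14 spacings of the pooled dentate, mostly apart from one another, and 32 of the 60 lie more than 14 spacings from it.

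The map of the sections showed how far the rule reached. The core was scattered: 167 of its 193 spots had a single C1ql2 UMI, 134 had no core spot as a neighbor, and 98.9% of the other spots with 500 or more UMIs lay within 14 spacings of a core spot, so that the distance part of the rule removed few spots. A second landmark was therefore built after seeing the data. UMIs of 11 dentate granule cell genes were pooled over each spot and its neighbors, and the largest connected group among the highest 2% of spots was called the pooled dentate (162 spots, 1 compact blade in each section). Within 14 spacings of the pooled dentate lay 28 members (46.7% of the 60, against 32.2% of all spots with 500 or more UMIs): 8 in trained 1, 9 in trained 2, 6 in untrained 1 and 5 in untrained 2. The other 32 lay elsewhere, and 8 of all 60 members touched another member. Position thus did not bear out the label of a pyramidal layer for the full set. Nearness to the pooled dentate, shared by 32.2% of all spots with 500 or more UMIs, does not place the 28 in that layer. Members are described below by the rule, with those within and those beyond 14 spacings of the pooled dentate side by side.

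The selection also set the depth. In the order trained 1 and 2, then untrained 1 and 2, which holds for all values below, members held a median of 4211.5, 5097, 2614 and 4742 UMIs, against 2138, 2691, 1347.5 and 2030 in the other spots, so in each section the member median lay above that of the rest. Summed over members the sections gave 72952, 111954, 36379 and 50890 UMIs, 272175 in all, and 1 UMI corresponded to 13.7, 8.93, 27.5 and 19.7 UMIs per 1000000. A gene with 0 UMIs in the members of a section was bounded at 41.1, 26.8, 82.5 and 59.0 UMIs per 1000000 (3 counts, counting error only). Levels below are UMIs of a gene per 1000000 UMIs of the summed spots of a section (CPM).

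The genes of the rule chose the members and their levels are a description. Hs3st4 stood at 384, 277, 329.9 and 432 CPM in members and at 46.2, 53.4, 42.0 and 36.0 in the other spots. Grik4 was at 151, 125, 219.9 and 157 against 16.2, 17.7, 14.3 and 11.8. Homer3 was at 82.2, 44.7, 219.9 and 118 against 11.5, 12.6, 10.1 and 12.4. Hs3st4 carried most of the selection, with at least 1 UMI in 52 members, Grik4 in 35 and Homer3 in 17. Hpca was at 1535, 813, 2474 and 2122 against 449.6, 491, 491 and 498. By construction the 5 excluded genes had 0 UMIs in members.

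Of the same genes, Homer3 and Hpca divided the members by place. Homer3 had 23 UMIs in the 28 members within 14 spacings of the pooled dentate and 2 UMIs in the 32 beyond, and its levels of 128, 82.9, 317 and 221 within did not overlap those of 29.4, 15.7, 0 and 0 beyond. Hpca was at 2338, 1223, 3249 and 3461 within and at 617, 502, 718 and 589.9 beyond, again with no overlap. Hs3st4 and Grik4 did not follow the place in this way. Hs3st4 was at 411, 228, 238 and 331 within and at 353, 314, 539 and 548 beyond, and Grik4 at 103, 104, 158 and 184 within and at 206, 141, 359 and 126 beyond.

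**Figure D2:**
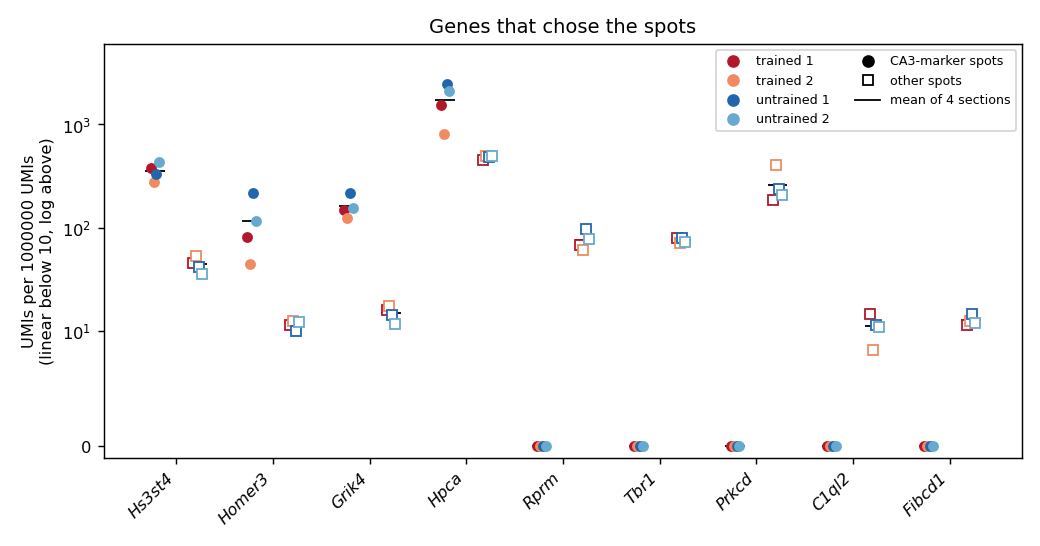
Levels of the genes that chose the spots, in CPM (linear below 10, log above), with 1 point per section for CA3-marker spots (filled circles) and other spots (open squares) and a bar at the mean of the 4 sections. Hs3st4, Homer3, Grik4 and Hpca are higher in members, and the 5 excluded genes are at 0, as the rule sets.

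At its lower edge the rule divided spots with few UMIs. Members with exactly 2 marker UMIs numbered 7, 17, 9 and 6 (39 in all), and spots that met every other condition with exactly 1 marker UMI numbered 79, 103, 40 and 63. Chgb, which the rule did not use, was at 495, 492, 506 and 262 CPM just inside this edge and at 376, 291, 418 and 319 just outside it, where untrained 2 turned the order. Slc17a7, the glutamate transporter of cortex and hippocampus, was at 468, 224, 1195 and 567 just inside and at 544, 304, 745 and 603 just outside, lower inside in all but untrained 1. Among the 21 members with 3 or more marker UMIs Chgb was at 765, 619.9, 615 and 1252. The share of spots within 14 spacings of the pooled dentate was 28.6%, 41.2%, 44.4% and 33.3% just inside and 24.1%, 35.0%, 32.5% and 38.1% just outside.

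Genes outside the rule were compared between members and all other spots of the same section, to see what the members share beyond the genes that chose them. Neurod6, Prdm8, Gabra5 and Rgs14 were among the genes higher in members, and Slc17a6, Rora, Ptgds and the hemoglobin genes among those lower. Of 11060 genes tested on the 8 sums with section as a block, 52 were called (0.47%), 16 higher (0.145%) and 36 lower (0.325%). Of the 16 higher, 13 lay on the same side in all 4 sections. The spots were selected on markers of these cells, so the counts describe the selected spots and are no independent evidence of what the cells are. Leaving out trained 1 gave 15 calls, trained 2 gave 96 and untrained 2 gave 28. DESeq2 called 15 higher and 4 lower, and with 3% of spots taken in each section the counts were 35 and 26, so the balance of higher and lower calls depended on the processing.

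Of the 13 genes 3 encode transcription factors. Neurod6, a basic helix-loop-helix factor of forebrain excitatory neurons, was at 260.4, 125, 412 and 216 CPM in members and at 54.5, 44.9, 54.8 and 59.8 in the other spots, with no overlap between members and others (log2 fold change 1.93, SE 0.26, adjusted p 1.98e-09). Prdm8, a zinc finger protein of the PRDM family, was at 164, 116, 137 and 177 against 37.6, 22.9, 43.2 and 38.8 (1.96, SE 0.32, adjusted p 2.50e-06). Zbtb18, a zinc finger repressor of cortical and hippocampal neurons, was at 315, 205, 549.8 and 609 against 167, 148, 155 and 175 (1.05, SE 0.19, adjusted p 7.30e-05). The lowest member value of each of these 3 genes came from trained 2.

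Gabra5, the alpha subunit of extrasynaptic GABA receptors of hippocampal pyramidal cells, was at 109.7, 161, 275 and 255 against 50.5, 48.4, 61.6 and 53.9 (log2 fold change 1.65, SE 0.28, adjusted p 5.90e-06). Rgs14, a regulator of G protein signaling best known from CA2, was at 247, 107, 192 and 118 against 46.8, 37.4, 50.03 and 59.7 (1.62, SE 0.30, adjusted p 6.34e-05). Cabp7, a calcium-binding protein, was at 164, 80.4, 192 and 177 against 35.7, 50.9, 32.2 and 43.6 (1.57, SE 0.32, adjusted p 0.00051). Spink8, a secreted serine peptidase inhibitor, rested on 18 UMIs in members and had the largest fold change (2.42, SE 0.51, adjusted p 0.0011), with 123, 35.7, 82.5 and 39.3 against 9.47, 8.67, 13.1 and 16.3.

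The other 6 of the 13 had fold changes from 0.61 to 1.12 on the log2 scale. Clstn2, a synaptic calsyntenin, and Wipf3, an actin regulator, had log2 fold changes of 1.12 (SE 0.26) and 1.07 (SE 0.22). Arpc5 of the actin-nucleating Arp2/3 complex, the copine Cpne6 and the tyrosine kinase Ptk2b rose by 0.87 (SE 0.22), 0.87 (SE 0.21) and 0.74 (SE 0.17). Chgb, the secretory granule protein chromogranin B, was at 631, 518, 549.8 and 806 against 369, 319, 392 and 375 (0.61, SE 0.16, adjusted p 0.038), the smallest change of the 13.

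The 3 other higher calls did not hold in every section. Ddn, the dendritic protein dendrin, was lower in members than in other spots of untrained 2 (413 against 433 CPM). Ccdc3, a secreted protein, had 0 UMIs in the members of trained 2. Gal, the neuropeptide galanin, was at 0, 393, 0 and 0 CPM in members, and 43 of its 44 UMIs came from members of trained 2 that lay beyond 14 spacings of the pooled dentate. The fit gave all genes the same trend of spread between sections, so a gene seen in 1 section could be called.

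Most of the 13 genes also differed by place. In 12 of the 13 the level within 14 spacings of the pooled dentate was above that beyond in all 4 sections, with Arpc5 as the exception. The same count was not made over all genes, so it describes the 13 and does not set them apart. Only Arpc5 was also above the other spots in all 4 sections when members beyond were read alone. Neurod6 was at 463, 228, 555 and 331 CPM within and at 29.4, 47.1, 89.8 and 84.3 beyond. Spink8 had all 18 of its UMIs within, Rgs14 had 41 within and 2 beyond, and Cabp7 had 35 within and 2 beyond. Restricted to these 28 members, the log2 fold change against all other spots was 2.47 (SE 0.29) for Neurod6, 2.29 (SE 0.32) for Rgs14 and 2.27 (SE 0.36) for Cabp7, and 183 of 10881 genes were called (1.68%), 38 higher (0.349%) and 145 lower (1.33%).

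**Figure D3:**
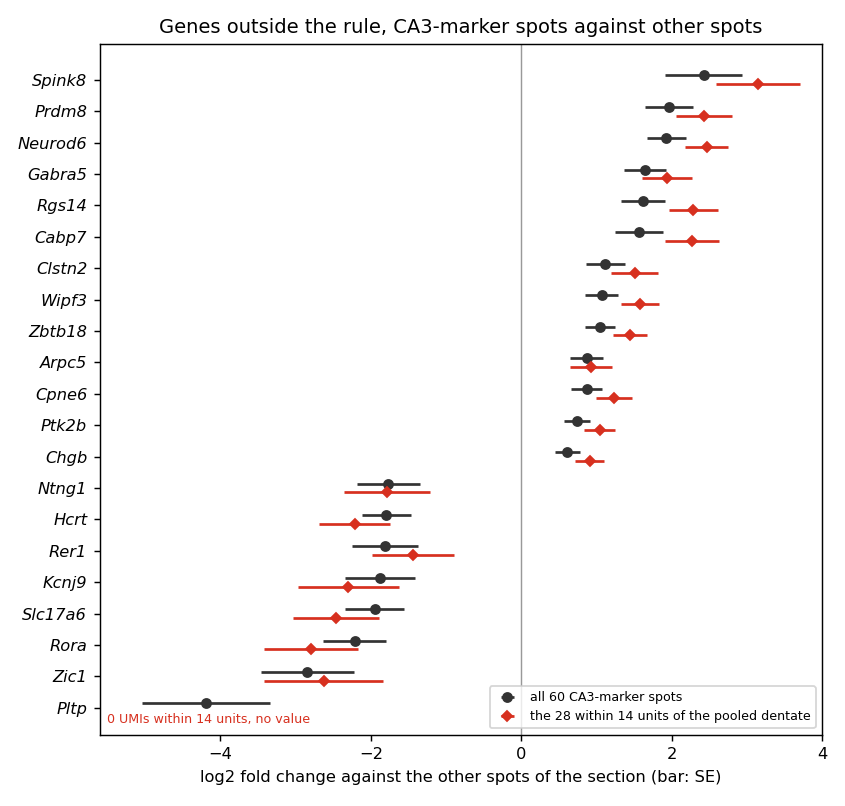
Log2 fold change of the named genes outside the rule, members against all other spots, with bars of 1 SE. Black circles are all 60 members and red diamonds the 28 within 14 spacings of the pooled dentate, where Pltp had 0 UMIs and is not drawn. The 13 higher genes lie farther from 0 in the 28, from 0.91 to 3.15, than in the 60, from 0.61 to 2.42.

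Slc17a6, the vesicular glutamate transporter of the thalamus and hypothalamus, was lower, at 13.7, 62.5, 27.5 and 19.7 CPM in members and at 117, 149, 122 and 103 in other spots (log2 fold change -1.95, SE 0.39, adjusted p 0.00038). Rora, a nuclear receptor, and Ntng1, the axonal adhesion protein netrin G1, had changes of -2.21 (SE 0.42) and -1.76 (SE 0.42). Kcnj9, a G protein-gated potassium channel subunit, and Rer1, a protein of retrieval to the endoplasmic reticulum, had -1.88 (SE 0.47) and -1.81 (SE 0.44). Hcrt, the orexin precursor of lateral hypothalamic neurons, was at 0, 188, 0 and 19.7 against 0.718, 606, 102 and 27.4, so most of its UMIs came from trained 2 on both sides, and its call was lost without that section. DESeq2 called none of the 8 named lower genes, which are these 6 with Pltp and Zic1.

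Pltp and Zic1 were close to the floor. Pltp, a phospholipid transfer protein, had 1 UMI in members where the level of the other spots would give 16.7, a ratio of 0.060 (95% exact Poisson interval 0.0015 to 0.33). Zic1, a zinc finger factor of thalamus and cerebellum, had 3 UMIs where 19.6 would be given, a ratio of 0.15 (0.031 to 0.45). Tnnt1, a troponin listed as a thalamus marker, had 0 UMIs in members, which placed it at least 2.76-fold lower than in other spots (3 counts over the members). The rule removed every spot with a Prkcd UMI, which bears on thalamus genes as a group: 2 of 9 tested thalamus markers were called lower (median log2 fold change -1.86, against -0.17 over all genes tested).

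Marker lists set the members against the tissue around them. The 14 CA3 markers outside the rule summed to 754, 875, 1127 and 845 CPM in members and to 658, 782, 719 and 688 in other spots, higher in all 4 sections, although none of the 11 tested was called for all members (median log2 fold change 0.06). Within 14 spacings of the pooled dentate the sums were 976, 829, 1149 and 1142, and beyond they were 499.5, 910.1, 1077 and 506, below the other spots of the same section in trained 1 and untrained 2. Cpne4, a copine of CA3, was at 154, 228, 357 and 147 within and at 88.1, 47.1, 89.8 and 42.1 beyond, and Slc9a4, a sodium-proton exchanger, had its 5 UMIs within. Iyd had 0 UMIs in all members, and Nnat, which marks many neurons, was not called (log2 fold change -0.26, SE 0.21). With the 28 members near the dentate 1 of 11 tested was called, Cpne4 (log2 fold change 1.24, SE 0.33, adjusted p 0.018). Over all genes that fit called 183 of 10881 (1.68%), 38 of them higher (0.349%).

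Lists of other cell types differed in direction, and their counts of calls stand beside the 0.47% called over all genes. Interneuron markers summed to 1905, 2671, 1099.5 and 1376 in members against 1705, 1648, 1589.8 and 1544 in other spots, higher in both trained sections and lower in both untrained ones. Striatum markers were higher in members of trained 1 and untrained 2 (685 against 625, and 609 against 461) and hypothalamus and amygdala markers in trained 2 (3957 against 3545). Thalamus markers summed to 302, 482, 275 and 216 against 798, 1357, 902 and 798, lower in all 4 sections. Blood markers fell in 3 of 4 tested genes (Hba-a1 -1.69, Hba-a2 -1.38 and Hbb-bs -0.97, on the log2 scale), choroid plexus markers in 2 of 7 (Ttr -1.07 and Enpp2 -0.90) and meningeal markers in 1 of 3 (Ptgds -1.07). Of the oligodendrocyte markers 1 of 9 was called lower (Cldn11 -1.07), with a median of -0.57. Astrocyte, microglia, endothelial and interneuron markers had no call among 9, 9, 7 and 9 tested, with medians of -0.39, -0.19, -0.74 and -0.42. Hypothalamus and amygdala markers had 1 of 10 higher (Gal) and 3 lower (Avp, Hcrt and Pmch), CA2 markers 1 of 6 higher (Rgs14) and 1 lower (Pcp4), and hilar mossy cell markers 1 of 4 lower (Calb2). Markers of CA1, dentate granule cells, cortex, striatum and ependyma had no call among 7, 7, 9, 8 and 1 tested. The part of these cell types in the changes of other genes was not tested.

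The counts of the functional lists are read beside the 0.47% called over all genes, which is under 1 gene in each list tested. Kainate receptors and their Neto partners had none of 6 tested (median log2 fold change -0.04), with Grik5 at 0.19 (SE 0.25) and Neto1, an auxiliary subunit of these receptors, at 0.48 (SE 0.33). AMPA, NMDA and metabotropic glutamate receptor lists had none of 11, 6 and 8. GABA receptors had 1 of 13, Gabra5. Potassium and HCN channels had 2 of 44, both lower (Kcnj9, and Kcnc2 with -1.22), and sodium and calcium channels had none of 24. Synaptic vesicle genes had 2 of 47, both lower: Rab3c, a vesicle GTPase, with -1.14 and the transporter Slc17a6. Secretory granule genes had 1 of 18 (Chgb), neuropeptides 1 of 12 (Gal), and calcium sensors and buffers 2 of 26, both lower (Calb2 with -1.49 and Pcp4 with -0.82). Adhesion genes had none of 36, heparan sulfate enzymes none of 17, immediate early genes none of 21, glycolysis none of 18 and mitochondrially encoded genes none of 13. Among dendritic RNAs 1 of 13 was higher (Ddn) and 1 lower (Bc1, a dendritic noncoding RNA, with -1.07).

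Bc1 varied widely between sections. It was at 14859, 7539, 24272 and 18943 CPM in members and at 22577, 16237, 47401 and 33771 in other spots (log2 fold change -1.07, SE 0.16, adjusted p 6.29e-08). Members were lower than the other spots of their own section in all 4, yet untrained members overlapped trained other spots.

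The nearest layer for comparison was CA1, taken by the analogous rule from Fibcd1, Wfs1 and Pou3f1 (168 spots, 70 of them within 14 spacings of the pooled dentate). Against these CA1-marker spots, members were higher in Chgb, Prdm8 and Clstn2 and lower in Ppp1r1b, Pde10a and Penk. Of 1826 genes tested 33 were called (1.81%), 14 higher (0.767%) and 19 lower (1.04%). Prdm8 (log2 fold change 2.35, SE 0.46) and Clstn2 (1.98, SE 0.37) were again higher, with Clstn2 at 178, 169.7, 137 and 216 CPM against 17.9, 45.7, 83.2 and 53.9. Chgb was higher by 1.15 (SE 0.19, adjusted p 8.14e-05), Nrip3, an aspartic peptidase-like protein, by 1.34 (SE 0.32) and Rph3a, the vesicle protein rabphilin, by 1.09 (SE 0.28). Of the secretory granule list 2 of 14 tested were called, both higher (median log2 fold change 0.11), and of the synaptic vesicle list 1 of 36, higher (median 0.25). Pvalb, the calcium buffer of fast-spiking interneurons, was higher by 1.64 (SE 0.26), at 329, 741, 137 and 197 against 137, 160.0, 125 and 68.5, and it was too low to test without trained 2. It was the 1 call among 6 tested interneuron markers, whose median was -0.17.

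Genes lower than in CA1-marker spots included Ppp1r1b, the dopamine target DARPP-32 (-1.70, SE 0.26), Pde10a, a striatal phosphodiesterase (-1.65, SE 0.35), Arpp21 (-1.64, SE 0.29), the opioid precursor Penk (-1.58, SE 0.22) and the kinase Plk2 (-1.39, SE 0.27). Striatum markers summed to 1292, 2583, 853 and 1126 CPM in the CA1-marker spots and to 685, 313, 275 and 609 in members, lower in members in all 4 sections, and their part in the calls was not tested. With both sides restricted to 14 spacings from the pooled dentate, 20 of 775 genes were called (2.58%), 8 higher (1.03%) and 12 lower (1.55%). Of the genes named here, Chgb (1.26, SE 0.24) and Plk2 (-1.70, SE 0.35) were tested and called there, and the others were too low to test.

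Against the C1ql2 core, the rule's own stand-in for the dentate, 10 of 2168 genes were called (0.461%), 6 higher (0.277%) and 4 lower (0.185%). Neurod6, which dentate granule cells largely lack, was higher by 2.70 on the log2 scale (SE 0.38, adjusted p 4.62e-05), at 260.4, 125, 412 and 216 CPM against 32.2, 41.6, 20.5 and 26.8, with no overlap. The proteoglycan Spock1 (1.23, SE 0.26), Pvalb (1.09, SE 0.23), Chgb (0.77, SE 0.17) and the synaptic membrane protein Snap25 (0.52, SE 0.12) were also higher in all 4 sections, and the sixth, Penk, in 3. Lower were Ptgds, a prostaglandin synthase of the meninges (-1.68, SE 0.21), Pmch, the melanin-concentrating hormone precursor (-1.42, SE 0.19), Adcy1, a calcium-stimulated adenylyl cyclase (-1.03, SE 0.21), and Bc1 (-0.53, SE 0.12).

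The core held tissue other than the dentate, with 28 of 193 core spots inside the pooled dentate and 92 beyond 14 spacings of it. Set against the pooled dentate instead, and restricted to the 28 members near it, members had 99 of 1018 genes called (9.72%), 54 higher (5.3%) and 45 lower (4.42%). There Neurod6 (2.94, SE 0.37), Spock1 (1.79, SE 0.33), Chgb (1.34, SE 0.22) and Snap25 (0.85, SE 0.17) stayed higher and Adcy1 (-1.90, SE 0.22) lower. Ptgds, Pmch and Bc1 had log2 fold changes of -0.27 (SE 0.23), 0.0020 (SE 0.40) and 0.21 (SE 0.22) and were not called, and Pvalb was not tested.

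The members varied among themselves. Divided at the median distance to the nearest core spot in each section, 3 of 505 genes were called (0.594%), all higher in the farther members. Mbp, myelin basic protein, was at 2484, 4078, 1485 and 3134 CPM far and at 944, 1547, 1178 and 1028 near (log2 fold change 1.30, SE 0.21, adjusted p 0.00037). Mobp, another myelin protein, was at 435, 1099, 594 and 530.3 far and at 147, 418, 131 and 166 near (1.56, SE 0.32, adjusted p 0.0056). DESeq2 called no gene, with 10 genes at an unadjusted p under 0.05, against 49 with edgeR.

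Divided instead at 14 spacings from the pooled dentate, a division chosen after seeing the data, members near the dentate were higher in Slc17a7, Cnih2, Chgb and Ddn, and members beyond in Tmsb10, Nap1l5 and Stmn1. Of 495 genes 27 were called (5.45%), 18 higher within (3.64%) and 9 higher beyond (1.82%), and 16 and 7 of these lay on the same side in all 4 sections. Slc17a7, the vesicular glutamate transporter of cortex and hippocampus, was at 1028, 456, 1941 and 1326 CPM within and at 382, 157, 718 and 506 beyond (log2 beyond minus within -1.39, SE 0.26, adjusted p 3.55e-05). Cnih2, an auxiliary subunit of AMPA receptors, was at 668, 767, 515 and 736 within and at 147, 204, 0 and 169 beyond (-2.15, SE 0.37). Wasf1, an actin regulator of dendritic spines, had -2.14 (SE 0.39) and Ddn -2.04 (SE 0.33). Dendritic RNAs had 2 of 9 tested called, AMPA receptor genes 1 of 2 and synaptic vesicle genes 1 of 18, all higher within.

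Chgb was at 951, 601, 753 and 1326 within and at 264, 455, 89.8 and 211 beyond (-1.48, SE 0.30, adjusted p 0.00011), without overlap. The synaptic pentraxin receptor Nptxr (-1.70, SE 0.34), Zbtb18 (-1.71, SE 0.37), the actin-binding Enc1 (-1.53, SE 0.34) and Ptk2b (-1.35, SE 0.33) followed. The calcium signaling genes Camk2b (-1.39), Camk2a (-1.11), Ppp3ca (-1.08) and Ppp3r1 (-0.81), which encode subunits of CaM kinase II and calcineurin, were higher within in all 4 sections. They were 4 of the 12 tested members of the calcium sensor list and all called on that side, where 18 of 495 genes were called in all (3.64%). Tmsb4x, an actin-sequestering thymosin, was at 5396, 4292, 5230.0 and 5855 within and at 2321, 1820.3, 1616 and 1770 beyond. The neuropeptide Cck had -1.04 (SE 0.24) and the secreted protein Olfm1 -0.81 (SE 0.23).

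Higher beyond were Tmsb10, another thymosin (log2 beyond minus within 1.74, SE 0.28), Nap1l5, an imprinted gene of neurons (1.42, SE 0.29), the tubulin regulator Stmn1 (1.35, SE 0.25), the synuclein Sncb (0.99, SE 0.32), Ldhb, a lactate dehydrogenase (0.96, SE 0.25), and the ribosomal gene Rpl37a (0.89, SE 0.25). Tmsb10 was at 970, 1428, 449 and 843 beyond and at 206, 456, 238 and 221 within. Mbp (0.86, SE 0.24) and Gad1, the enzyme of GABA synthesis (1.19, SE 0.32), were called but not on the same side in all 4 sections. Striatum markers summed to 1381, 392, 449 and 885 beyond and to 77.1, 207, 198 and 368 within, interneuron markers to 2174, 3703, 1346.5 and 2233 beyond and to 1670, 1306, 991 and 626 within, and oligodendrocyte markers to 5553, 6748, 2962 and 5478 beyond and to 2261, 3504, 2536 and 2578 within. All 3 sums were higher beyond in all 4 sections. Hypothalamus and amygdala markers reached 5994 in the members of trained 2 beyond the limit, against 646 to 1436 in the other 3 sections.

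**Figure D4:**
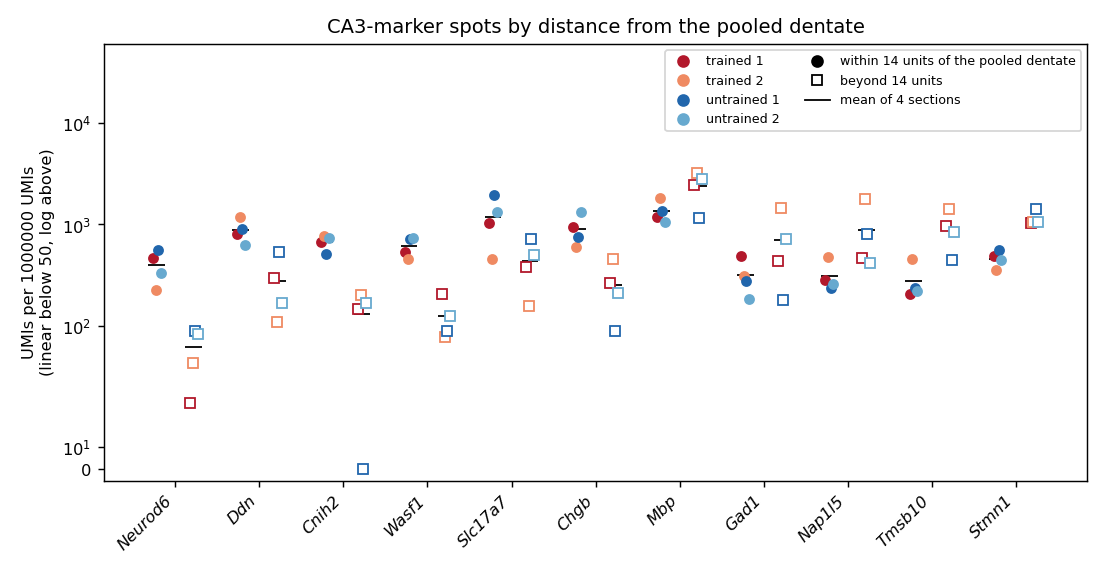
Levels in CPM (linear below 50, log above) of genes in members within 14 spacings of the pooled dentate (filled circles) and beyond (open squares), with 1 point per section and a bar at the mean of the 4 sections. Slc17a7, Chgb, Cnih2, Wasf1, Ddn and Neurod6 lie higher within in each section, and Nap1l5, Tmsb10 and Stmn1 lie higher beyond.

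Trained and untrained members were compared over 4 sums, 2 a group, to see whether the CA3-marker spots differed 3 days after the retention test. No gene was called. Of 1259 genes tested 0 were called by edgeR (0% of the table), DESeq2 and limma voom, with 110, 16 and 107 at an unadjusted p under 0.05. A rank-sum test over single spots, which takes spots of a mouse for replicates, called 1, the ribosomal gene Rps12 (0.0794%). Its p-values were adjusted by the stricter Bonferroni method, so the counts are not alike, and 143 genes had an unadjusted p under 0.05. On simulated counts with the same totals, edgeR called 100% of genes raised by 2 on the log2 scale and 75% of those lowered by 2. It called 66% and 34% of those raised and lowered by 1, with 4 false calls, so changes of either size could be missed. The changed genes were drawn from the more abundant ones tested, with 1 common spread for all genes, so genes with few UMIs were not covered.

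The 5 genes with the smallest p had groups that did not overlap, which ranking by p favors with 2 sections a group. How many of all genes tested did the same was not counted. Znhit1, a zinc finger protein of chromatin remodeling, was at 27.4 and 26.8 CPM in trained members and at 192 and 197 in untrained members (log2 trained minus untrained -2.72, SE 0.61, adjusted p 0.54), on 22 UMIs. Sept4, a septin, was at 247 and 259 against 55.0 and 78.6 (1.90, SE 0.51, adjusted p 0.54). Cnksr2, a scaffold of the postsynaptic density, was at 68.5 and 35.7 against 219.9 and 216 (-2.06, SE 0.56, adjusted p 0.54). Malat1, a nuclear noncoding RNA, was at 82.2 and 53.6 against 302 and 216 (-1.88, SE 0.52, adjusted p 0.54), and Pvalb was at 329 and 741 against 137 and 197 (1.72, SE 0.48, adjusted p 0.54), and its other spots were divided the same way, at 249 and 339 against 155 and 160.0. None of these differences passed the threshold.

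A further 7 genes had been listed in advance from earlier results of these data, and none was called. Bc1 was at 14859 and 7539 in trained members against 24272 and 18943 (-0.90, SE 0.35, adjusted p 0.54), and it was lower in the trained sections in the other spots too. AC149090.1, a predicted gene, was at 315 and 232 against 82.5 and 177 (1.01, SE 0.47, adjusted p 0.54), and the other spots were divided the same way, at 329 and 236 against 147 and 137. Gm42418, an rRNA-like transcript, had -1.09 (SE 0.52), Ptgds -0.56 (SE 0.32), and mt-Atp8, a mitochondrial ATP synthase subunit, -0.45 (SE 0.50). Ttr, the choroid plexus protein transthyretin, was at 2275 and 197 against 1072 and 5168 (-1.37, SE 0.79), and its groups overlapped. Cacna2d1, a calcium channel subunit, had 8 UMIs in each group, a mean of 45.3 CPM in trained and 82.5 in untrained members, and was too low to test.

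Immediate early genes were sparse. Egr1, an activity-induced transcription factor, was at 192 and 169.7 CPM in trained members and at 82.5 and 373 in untrained members, so the trained sections lay between the untrained ones. Arc, the activity-regulated cytoskeletal protein, had 20 UMIs in trained and 7 in untrained members (means of 104 and 76.6 CPM), Fos 10 and 2 (51.8 and 23.6 CPM), Npas4 4 and 0, and Bdnf, the neurotrophin, 5 and 5 (means of 31.9 and 53.0 CPM), all below the minimum for testing. Gt(ROSA)26Sor, which the study reads as the eYFP reporter, had 16 UMIs in each group (means of 83.4 CPM in trained and 161 in untrained members), with 15 of the untrained 16 in untrained 2.

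Marker sums of trained and untrained members were set side by side without a test. Interneuron markers summed to 1905 and 2671 in trained members and to 1099.5 and 1376 in untrained members, without overlap, and cortex markers to 699 and 464 against 880 and 1061. In the other spots interneuron markers were divided the same way, at 1705 and 1648 against 1589.8 and 1544. CA2, thalamus, microglia, meningeal and blood markers of members also did not overlap between the groups, while astrocyte, oligodendrocyte and choroid plexus markers did. Hypothalamus and amygdala markers were at 672 and 3957 against 1017 and 845, the high value from trained 2, and their part in the comparison was not tested. Without trained 1, which left trained 2 as the single trained section with its spread assumed to be that of the untrained pair, 53 of 1298 genes were called (4.08%), 31 higher (2.39%) and 22 lower (1.69%). With the 28 members near the pooled dentate 0 of 610 genes were called (0%), with 54 at an unadjusted p under 0.05.

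**Figure D5:**
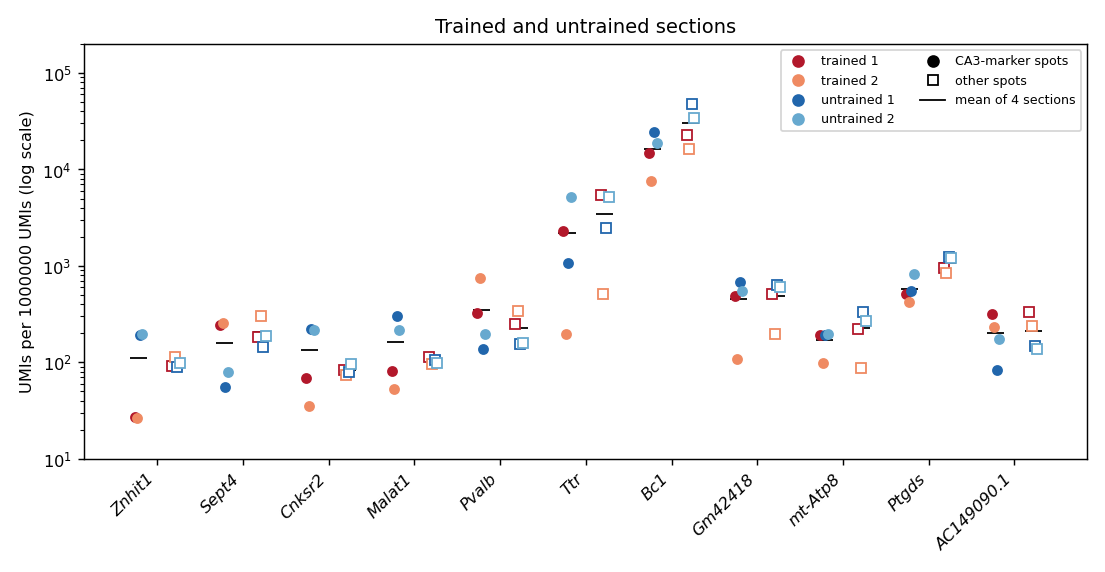
Levels in CPM (log scale) of the 5 genes with the smallest p between trained and untrained members and of 6 genes listed in advance, with 1 point per section for members (filled circles) and other spots (open squares) and a bar at the mean of the 4 sections. None passed the threshold, and Bc1 is lower in both trained sections in members and in other spots alike.

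Whether the training difference in members departed from that in the rest of the section was tested with the term for spot class by training. Of 11823 genes 0 were called (0%) by edgeR and by DESeq2, with 343 and 99 at an unadjusted p under 0.05. Without trained 1 the count was 6, all with a more positive training difference in members.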

How the data were processed

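Per the authors' methods, libraries of the 4 Visium sections were processed with Space Ranger against the mm10 reference. The header of the deposited count files names Space Ranger 1.2.2, and the labels list Cell Ranger 8, STAR and GRCm39. The authors deposited the raw UMI counts of 32285 genes in the spots over tissue, without normalization. Of 38 symbols with several IDs, the ID with the most UMIs kept the plain symbol. Array positions gave distances. The sections share barcodes (1330 in all 4) because the arrays carry the same set. Images and single-nucleus data were not used here.

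UMIs were summed per section over each class of spots and tested with edgeR 4.0.16 (filterByExpr, TMM, quasi-likelihood F-test, two-sided, Benjamini-Hochberg over all genes tested, threshold 0.05) in R 4.3.3, with section as a block where both classes come from the same sections. The 9 genes of the rule stayed in library sizes and, outside the training comparison, out of the tests; so did Wfs1 and Pou3f1 for CA1. SE is the log2 fold change over the root of F. P-values rest on the spread between sections of 1 mouse each. In the main fits against all other spots and for spot class by training, that spread was a trend shared by all genes. A gene's own spread did not enter its p-value there. Same-numbered sections did not pair (correlation of deviations -0.01). Tests were checked on simulated counts.

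Named are the genes of the rule; the called genes with the largest and smallest fold change, on the same side in all 4 sections and at 50 or more UMIs per 1000000 on the higher side (up to 14 and 8 against all other spots, 6 and 6 against CA1 and core, 5 and 5 by distance); for training the 5 smallest p and 7 genes listed from earlier results; called members of the lists; and 6 activity genes. Predicted and mitochondrial genes were not named by fold. The members, lists and tests were chosen with earlier results of these data known. Alternatives were DESeq2 1.42.0, limma 3.58.1 voom, a rank-sum test over spots (Bonferroni adjustment), other filters, selections, comparators and blocks, thinned sums, and each section left out. The pooled dentate was added after seeing the data. Some results are not reported here.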

Additional observations from a re-analysis of the deposited data

How the results depend on the processing

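Counts of called genes moved with the processing, and the cause was not tested. Against all other spots (52 called) DESeq2 gave 19, thinned sums 10, 3 or more marker UMIs 97, isolated core spots left out 96, other spots with Hpca 29, no section block 13, and members within 14 spacings of the pooled dentate 183. With each section left out the count ran from 15 (without trained 1) to 96 (without trained 2), and 28 without untrained 2. Of the 21 named genes DESeq2 called the 13 higher and none of the 8 lower, thinned sums, with 628 genes tested in all, called 1, and the fit without trained 1 called 6. Gal turned to -0.35 with DESeq2, -0.35 with the same share of spots in each section and -2.08 within 14 spacings, and with the same share Ttr turned to 0.0329 and Enpp2 to 0.315. Against CA1-marker spots (33) DESeq2 gave 5, thinned sums 5, no section block 12, and both sides restricted to spots near the pooled dentate 20, with 10 (without trained 1) to 29 over sections left out and 19 without trained 2. Against the core (10) the counts were 1 with DESeq2, 16 with no filter, 5 with thinned sums, 47 with 3 or more marker UMIs, 1 with no section block and 99 for the 28 members near the pooled dentate against the pooled dentate itself, a change of both sides at once, where Pmch turned to 0.0020 and Bc1 to 0.21, and 7 to 33 over sections left out, the highest without trained 2 and 16 without untrained 1. Far against near (3) gave 0 with DESeq2, 1 with 3 or more marker UMIs, 1 with no section block, 1 for the nearest against the farthest members, 27 when divided at the pooled dentate, and 2 to 8 over sections left out, with 8 without trained 1 and 5 without untrained 1.

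For trained against untrained (0 called) no filter gave 1 (Gal), 3 or more marker UMIs 5 (Gad1, Cst3, Ppp3r1, Pvalb and Hpca, which is a gene of the rule and no finding), the same share of spots 9, isolated core spots left out 1 (Bc1), the rank-sum test over spots 1 (Rps12), and sections left out 1 to 53, with 53 without trained 1, 2 without untrained 1 and 1 without trained 2 or untrained 2. With the replicate number as a replicate block 1 gene was called, Slc17a7, lower in trained. Over sections left out Ttr ran from -3.98 to 0.261, turning without untrained 2, and mt-Atp8 from -0.935 to 0.0425, turning without trained 2, and Ptgds turned to 0.274 near the pooled dentate. The training difference in members minus other spots (0) ran from 0 to 6, with 6 without trained 1. The alternative that kept only members with a neighboring member had no member in either untrained section and was not run. The 60 spots held 272175 UMIs, at which 1259 genes passed the filter for the training comparison.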
